A study of Mus musculus with 6 samples.

Results

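The peptidylarginine deiminase genes Padi1, Padi2, Padi3, Padi4 and Padi6 were followed through the testes of WT, P2KO and DKO mice. They were chosen by name as the Padi genes that the annotation places on mouse chromosome 4, and they are 5 of the 55536 genes in the table of counts. RNA from whole testes of adult males, 4 months old by the study's methods, was sequenced after poly(A) selection, with 2 mice and so 2 libraries for each genotype. WT mice were FVB/NJ, and the other lines were on that background. P2KO mice carried a Padi2 allele in which LacZ and neomycin coding sequence replaced exon 1 from the start codon on. DKO mice carried the same Padi2 allele and, made on it with CRISPR/Cas9, a deletion of 4 nucleotides in exon 1 of Padi4 that shifts the reading frame. The DKO line came from 1 founder and was bred to homozygosity. P2KO and DKO thus shared the Padi2 allele, DKO alone had the Padi4 deletion, and no group carried the Padi4 deletion without the Padi2 allele.

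The Padi genes code for PAD enzymes, which hydrolyse the side chain of arginine within a finished protein and leave citrulline in its place. Citrulline has no codon, so its presence in a protein marks the work of a PAD, and the enzymes need bound calcium to act. PAD1 and PAD3 are best known from the epidermis and hair follicle, where they act on filaggrin, trichohyalin and keratins. PAD2 is the member with the widest tissue range and acts on myelin basic protein, vimentin and histones, and PAD4 is best known from granulocytes, where it acts on histones and takes part in the release of chromatin. PAD6 is an oocyte and early embryo protein of the subcortical maternal complex.

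The genes lay in 1 stretch of 225.2 kb on chromosome 4 of GRCm38, from 140727355 to 140952586. Padi6 (ENSMUSG00000040935) ran from 140727355 to 140742643, Padi4 (ENSMUSG00000025330) from 140745865 to 140774236, Padi3 (ENSMUSG00000025328) from 140785365 to 140810648 and Padi1 (ENSMUSG00000025329) from 140812983 to 140845778, all on the minus strand. Padi2 (ENSMUSG00000028927) ran from 140906344 to 140952586 on the plus strand. The gaps between neighbours were 3.2 kb from Padi6 to Padi4, 11.1 kb from Padi4 to Padi3, 2.3 kb from Padi3 to Padi1 and 60.6 kb from Padi1 to Padi2. Each gene had a transcript of 16 exons, with a coding sequence of 662 codons in Padi1, 673 in Padi2, 664 in Padi3, 666 in Padi4 and 682 in Padi6.

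Both engineered alleles change exon 1, so its coding part is shown for all members, as GENCODE's transcripts give it for the reference genome (not for FVB/NJ) and 5′ to 3′ on the strand of the gene. The capitals mark the start codon.
Padi1 (chr4:140845560-140845651, minus strand): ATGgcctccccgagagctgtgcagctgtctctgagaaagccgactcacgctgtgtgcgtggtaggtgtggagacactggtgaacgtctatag
Padi2 (chr4:140906434-140906549, plus strand): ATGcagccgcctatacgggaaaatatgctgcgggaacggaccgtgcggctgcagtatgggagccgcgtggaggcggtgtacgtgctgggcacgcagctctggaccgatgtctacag
Padi3 (chr4:140810516-140810607, minus strand): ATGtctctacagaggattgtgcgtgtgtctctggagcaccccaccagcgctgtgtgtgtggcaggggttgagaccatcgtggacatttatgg
Padi4 (chr4:140774089-140774180, minus strand): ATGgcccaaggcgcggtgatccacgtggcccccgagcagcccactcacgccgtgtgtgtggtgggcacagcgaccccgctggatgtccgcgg
Padi6 (chr4:140742489-140742580, minus strand): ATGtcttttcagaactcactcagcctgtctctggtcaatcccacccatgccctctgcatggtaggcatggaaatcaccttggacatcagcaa
The coding part of exon 1 was 92 bases long in Padi1, Padi3, Padi4 and Padi6 and 116 bases in Padi2. Its GC content was highest in Padi4, at 71.7%, against 62.9% or less in the other members. The 116 annotated coding bases of Padi2 exon 1 were 2.31% of the merged exon bases over which its reads were counted, and the study's methods give a somewhat longer replaced stretch than these annotated bases. The coding bases of exon 1 that hold the Padi4 deletion were 1.9% of the merged exon bases of Padi4. A count over the whole gene therefore covered sequence that remained in the engineered alleles.

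Identity between the coding sequences of the members ran from 54.4% for Padi2 and Padi6 to 64.7% for Padi1 and Padi4. The longest run of bases shared by the transcripts of a pair was 63, in Padi1 and Padi3, and 33 in Padi3 and Padi4. Of the other annotated genes, Gm13032 shared 1200 exon bases with Padi1 on the other strand and had 0 counts in all 6 libraries, and Gm13031 shared 149 exon bases with Padi2 on the other strand and had at most 2 counts in a library. The libraries were strand-specific, but the strand setting of the deposited table is not given in the sources used here, so reads from these pairs may not have been told apart.

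The libraries held from 21939393 to 27306679 counts on genes, of which mitochondrial genes took from 0.636% to 0.725%. Of the 55536 genes, 20744 passed a filter on low counts and were tested. As a check of the tissue, markers of Sertoli cells summed to between 781 and 903 CPM (counts scaled to library size), those of spermatocytes to between 1022 and 1086 and those of spermatids to between 10581 and 13061, so that the defining markers of testis were present in every library. All genes of the Sertoli, Leydig, spermatogonia, spermatocyte and spermatid lists had counts.

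The members differed widely in level. On a length scale, as counts per kilobase of merged exons scaled to library size (RPKM), Padi6 had the highest level over the 6 libraries at 4.49 ± 0.61 (SD, n = 6), with a range of 3.79 to 5.45. Padi3 followed at 1.84 ± 0.401 RPKM (range 1.5 to 2.46). Padi2 was at 0.547 ± 0.134 RPKM (range 0.43 to 0.721). Padi1 was at 0.278 ± 0.0708 RPKM (range 0.193 to 0.368), and Padi4 at 0.128 ± 0.117 RPKM (range 0.0323 to 0.336). The ranges of Padi6, Padi3, Padi2 and Padi1 did not overlap, and only the last neighbours in the order, Padi1 and Padi4, had ranges that overlapped.

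These levels were low to middling for the testis. Among the tested genes, whose median was 2.76 RPKM, Padi6 stood at percentile 59.5, Padi3 at 42, Padi2 at 19.6, Padi1 at 10.2 and Padi4 at 3.21. These values take the 6 libraries of all genotypes together. In WT alone, the percentiles were 61.1 for Padi6, 46.6 for Padi3, 16.9 for Padi2, 9.63 for Padi1 and 9.82 for Padi4. Padi4 was at 1.54 in P2KO and 0.174 in DKO. Padi6 and Padi3 together took most of the family's counts, and Padi6 alone took from 45.8% to 54.2% of them. The family summed to between 428 and 695 counts per library. Padi6, known as an oocyte gene, was thus the member with the most RNA in these male gonads, and the ratio of its RPKM level to that of Padi3 ran from 1.73 to 2.96 over the libraries.

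**Figure D1:**
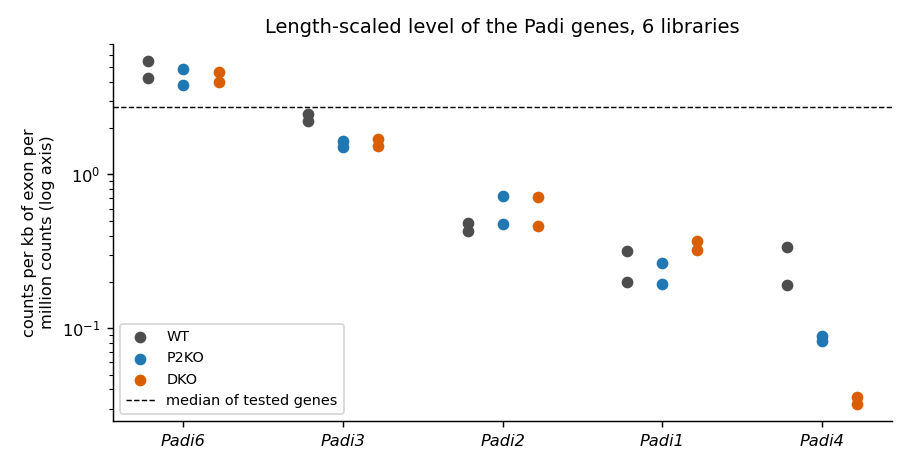
Length-scaled level (RPKM, log axis) of each Padi gene in each of the 6 libraries, coloured by genotype, with the median of the tested genes (2.76) as a dashed line. Padi6 lies highest, at 3.79 to 5.45, and Padi4 spans the widest range, from 0.0323 in a DKO library to 0.336 in a WT library.

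On this scale, the order changed among genotypes only at its low end. In WT, Padi1 and Padi4 had near-equal levels of 0.259 ± 0.0827 and 0.263 ± 0.103 RPKM (SD, n = 2), and Padi4 was above Padi1 in 1 of the 2 libraries. In P2KO and DKO, Padi4 was the lowest member in all 4 libraries, at 0.086 ± 0.0053 and 0.034 ± 0.00244 RPKM. The ratio of Padi1 to Padi4 on this scale was 1.67 and 0.599 in the WT libraries, 2.34 and 2.96 in P2KO, and 9.98 and 10.3 in DKO. These values depend on the length used. Merged exons of Padi4 had 4835 bases, and its coding transcript of 16 exons had 2316. The same lengths were both 3754 in Padi1, and 5013 and 4774 in Padi2. Scaled to coding transcripts, Padi4 would thus stand higher against Padi1 and Padi2.

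The question for each member was whether its RNA differed between testes that carry the Padi2 allele alone or with the Padi4 deletion and those of WT. Normalized counts are counts brought to a common library size by TMM scaling. All comparisons came from 1 fit of the 6 libraries (edgeR's quasi-likelihood test, Benjamini-Hochberg over all 20744 tested genes), and genes with an adjusted p under 0.05 were called changed. The comparisons with WT share the same 2 WT libraries. All 5 members passed the filter on low counts. Padi1, Padi2, Padi3 and Padi6 were over its level of 0.405 CPM in all 6 libraries, while Padi4 was over it in both WT libraries and 1 P2KO library and in neither DKO library, so Padi4 passed through the genotypes in which it was high. In RNA of a whole tissue, fewer cells of a type and less RNA per cell cannot be told apart.

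In DKO, 2 of the 5 members fell against WT, Padi4 and Padi3, where 3.22% of all tested genes changed and 1.16% fell. DESeq2 called 0 of the 3 members to which it gave an adjusted p there. In P2KO against WT, 0 of the 5 members passed by edgeR's quasi-likelihood test, where 0.337% of all tested genes did. There, 2 of the 5 (Padi3 and Padi4) were at an unadjusted p under 0.05, as were 1777 of all 20744 tested genes. DESeq2 called 0 of the 5. In DKO against P2KO, 0 of the 5 passed by edgeR's quasi-likelihood test, where 1.21% of all tested genes did. There, 1 of the 5 (Padi4) was at an unadjusted p under 0.05, as were 2458 of all 20744 tested genes. DESeq2 called 0 of the 3 to which it gave an adjusted p. With the mean of P2KO and DKO set against WT, Padi3 and Padi4 fell, 2 of the 5, where 1.76% of all tested genes changed and 0.627% fell. DESeq2 called 1 of the 5, Padi4, and by edgeR's quasi-likelihood test the call of Padi4 was lost without WT replicate 2 (log2 fold change -1.79, adjusted p = 0.158).

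**Figure D2:**
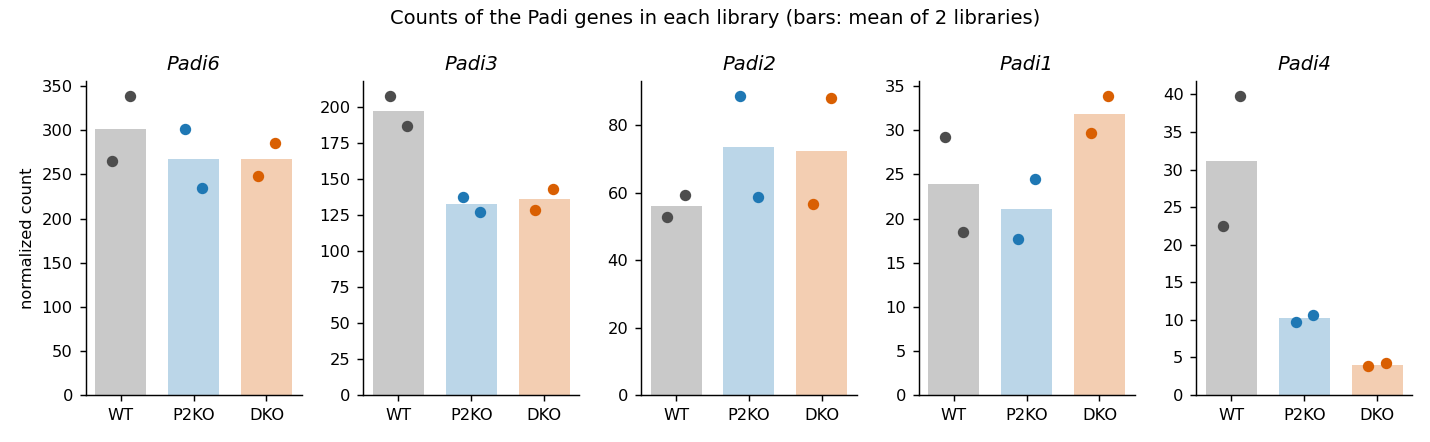
Normalized count of each Padi gene in each library, by genotype, as points, with bars from 0 to the mean of 2 libraries and a separate axis for each gene. Padi4 steps down from WT to P2KO and DKO, and both WT libraries lie above the 4 others for Padi3.

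Padi2, the member with the replaced exon, had 47 and 64 counts in WT, 100 and 55 in P2KO, and 59 and 83 in DKO. The genotypes overlapped, and the lowest library of the 6 was a WT library. The means were 56.1 ± 4.45, 73.6 ± 21.3 and 72.3 ± 22.3 normalized counts in WT, P2KO and DKO (SD, n = 2 each). The log2 fold change was 0.40 in P2KO against WT (SE 0.239, 95% interval -0.08 to 0.89, edgeR quasi-likelihood adjusted p = 0.686) and 0.35 in DKO against WT (SE 0.242, 95% interval -0.14 to 0.84, adjusted p = 0.575). Without P2KO replicate 1 the first was 0.06, and without DKO replicate 2 the second was 0.00. For the mean of P2KO and DKO, the ratio to WT was 1.3 with a 95% interval of 0.965 to 1.75. Padi2 counts thus do not check the Padi2 label of these libraries, and P2KO and DKO are named here by their labels.

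Padi4, the member with the deletion in DKO, had 20 and 43 counts in WT, 11 and 10 in P2KO, and 4 in each DKO library. Every P2KO and DKO library was below both WT libraries, and both DKO libraries were below both P2KO libraries. The counting error is wide at this depth, with exact Poisson 95% intervals of 12.2 to 30.9 and 31.1 to 57.9 counts in WT and 1.09 to 10.2 in each DKO library, and such intervals cover counting error only. In normalized counts, the means were 31.2 ± 12.2 in WT, 10.2 ± 0.629 in P2KO and 4.04 ± 0.289 in DKO (SD, n = 2 each).

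Padi4 fell in DKO against WT by 2.94 on the log2 scale (SE 0.513, 95% interval -3.98 to -1.89, edgeR quasi-likelihood adjusted p = 2.78e-04), to 0.131 of the WT level. Of all tested genes, 0.0289% had a lower log2 fold change in this comparison. That share covers genes of all depths, and Padi4 passed the filter only through WT and 1 P2KO library. Of the 1324 tested genes with a mean count within 25% of that of Padi4, 0.529% changed. The smallest change called among them was 1.75 on the log2 scale. For Padi4, the log2 fold change of P2KO against WT was -1.63 (SE 0.423, edgeR quasi-likelihood adjusted p = 0.0959), which did not pass. It passed without a filter on low counts (adjusted p = 0.0115) and without WT replicate 1 (log2 fold change -1.96, adjusted p = 0.0158). Without WT replicate 2 the log2 fold change was -1.14 with an edgeR quasi-likelihood adjusted p of 0.85, and DESeq2 gave -1.62 with an adjusted p of 1. Between DKO and P2KO the log2 fold change was -1.31 with a 95% interval of -2.59 to -0.03 (edgeR quasi-likelihood adjusted p = 0.404), so a difference of Padi4 between the genotypes that differ in the Padi4 deletion was not shown at this depth. DESeq2 gave no adjusted p for Padi4 in DKO against WT, and its unadjusted p was 1.93e-04.

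In P2KO, where Padi4 was not engineered, both libraries were also below WT. Markers of neutrophils, the cells in which Padi4 is best known, were read beside it. Of the 14 genes on that list, 8 had at most 3 counts in every library. Among these 8, 5 (Ctsg, S100a8, S100a9, Ngp and Ly6g) were at 0 in all 6 libraries. The list summed to between 87.2 and 98 CPM in WT, 83.4 and 88 in P2KO and 94 and 96.5 in DKO, nearly all of it Lcn2, with 1901 to 2425 counts. Mpo had 7 to 23 counts and Csf3r 4 to 14, and 0 of the 3 tested genes changed in any comparison, by edgeR's quasi-likelihood test or by DESeq2. At an unadjusted p under 0.05 there were 0 in either comparison with WT and 2 in DKO against P2KO. In the latter, 2458 of all 20744 tested genes were at that level.

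Markers of red blood cells were read beside Padi4 as well. Hba-a1, a chain of hemoglobin, had 168 and 358 counts in WT, 82 and 258 in P2KO, and 207 and 138 in DKO, and Hbb-bs, another chain, had 146 and 295, 67 and 166, and 149 and 97. At a common library size, the WT libraries overlapped with P2KO for both genes and with DKO for Hba-a1, while both DKO libraries were below WT for Hbb-bs. WT replicate 2, the library with the most Padi4 counts, had the most of both genes. In P2KO and DKO against WT, the log2 fold changes were -0.64 and -0.61 for Hba-a1 and -0.94 and -0.84 for Hbb-bs (edgeR quasi-likelihood adjusted p = 0.103 and 0.0504 for Hbb-bs). The 4 genes of the list summed to 32.5 to 43 CPM in WT, 21.7 to 37 in P2KO and 31.5 to 31.9 in DKO. Of its 3 tested genes, 0 passed in either comparison with WT by edgeR's quasi-likelihood test. In each, 2 were at an unadjusted p under 0.05, as were 1777 of all 20744 tested genes in P2KO and 2934 in DKO. For the mean of P2KO and DKO 1 fell, as did 0.627% of all tested genes. DESeq2 called 0 in all of these comparisons. The part of blood in the Padi4 counts was not tested.

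Padi3, an enzyme of the hair follicle and upper epidermis, had 185 and 202 counts in WT, 156 and 119 in P2KO, and 135 in each DKO library. Both WT libraries were above the 4 others, and the P2KO and DKO libraries overlapped. The means were 198 ± 15.1, 133 ± 8.26 and 136 ± 9.76 normalized counts in WT, P2KO and DKO (SD, n = 2 each).

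Padi3 fell in DKO against WT by 0.54 on the log2 scale (SE 0.149, 95% interval -0.84 to -0.23, edgeR quasi-likelihood adjusted p = 0.0351), to 0.69 of the WT level. In P2KO against WT the log2 fold change was about as large, -0.57 (SE 0.148, edgeR quasi-likelihood adjusted p = 0.0959), and did not pass. Between DKO and P2KO it was 0.03 with a 95% interval of -0.28 to 0.35. With the mean of P2KO and DKO against WT, which uses all 4 libraries with the Padi2 allele, Padi3 fell by 0.55 on the log2 scale (SE 0.127, edgeR quasi-likelihood adjusted p = 0.0133), to 0.682 of the WT level. An exact two-sided permutation test of the 4 against the 2 normalized counts gave p = 0.133, the smallest it can give.

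The fall of Padi3 in DKO against WT was not held by every fit. DESeq2 gave a log2 fold change of -0.53 with an adjusted p of 0.226, and the edgeR quasi-likelihood adjusted p was 0.159 without WT replicate 1, 0.054 without WT replicate 2, 0.286 without DKO replicate 1 and 0.128 without DKO replicate 2. For the mean of P2KO and DKO it was 0.175 by DESeq2, and by edgeR's quasi-likelihood test 0.0989 without WT replicate 1, 0.0523 without P2KO replicate 2 and 0.0655 without DKO replicate 1. Of the 1531 tested genes with a mean count within 25% of that of Padi3, 2.16% changed in DKO against WT, and the smallest change among them was 0.507 on the log2 scale.

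The 2 WT libraries also had the highest summed spermatid markers, 12583 and 13061 CPM, against 10581 and 11790 in P2KO and 11409 and 11491 in DKO. That sum is mostly transition proteins and protamines. Of that list of 6 genes, Tnp2, a nuclear transition protein of elongating spermatids, fell in P2KO against WT (log2 fold change -0.29, edgeR quasi-likelihood adjusted p = 7.62e-04), where 0.337% of all tested genes changed, and in DKO against WT Tnp1 (-0.25, adjusted p = 0.013) and the protamine Prm1 (-0.22, adjusted p = 0.0302) fell. Of these 6, DESeq2 called 1 in P2KO and 0 in DKO against WT, and the log2 fold changes of the acrosomal genes Acrv1 and Spaca1 were 0.14 and 0.16 in P2KO and 0.05 and -0.10 in DKO, none of which passed. Of 7 Leydig cell markers, Star, Cyp11a1, Cyp17a1 and Hsd3b6 rose and Hsd3b1 fell in DKO against WT, with log2 fold changes of 0.51, 0.28, 0.31, 0.41 and -0.46 by edgeR's quasi-likelihood test. DESeq2 called 2 of the 7, 3.22% of all tested genes changed in that comparison, and Lhcgr (-0.38) and Insl3 (0.04) did not pass. The part of these marker genes in the lower counts of Padi3 and Padi4 was not tested. Over all genes, the central 95% of log2 fold changes lay from -0.69 to 0.58 in DKO against WT, and 4.31% of tested genes were below Padi3.

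Padi6 had 235 and 366 counts in WT, 339 and 221 in P2KO, and 259 and 270 in DKO. The genotypes overlapped, and the 2 WT libraries lay farther apart than the 2 DKO libraries. The log2 fold change was -0.17 in P2KO against WT (95% interval -0.44 to 0.10) and -0.19 in DKO against WT (95% interval -0.46 to 0.08), and neither passed. Without WT replicate 2 both were near 0, at 0.02 and 0.01.

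Padi1, the other epidermal member, had 26 and 20 counts in WT, 20 and 23 in P2KO, and 31 and 32 in DKO. The DKO libraries were above the 4 others in normalized counts, at 31.8 ± 2.99 against 23.9 ± 7.62 in WT and 21.1 ± 4.77 in P2KO (SD, n = 2 each), though the lower DKO library (29.7) was close to the higher WT library (29.3). The log2 fold change was 0.43 in DKO against WT (95% interval -0.27 to 1.13) and 0.60 in DKO against P2KO (95% interval -0.11 to 1.31, edgeR quasi-likelihood adjusted p = 0.522), and neither passed. With 1 library left out they ran from 0.11 to 0.77 and from 0.37 to 0.84. Among the 1387 tested genes with a mean count within 25% of that of Padi1, the smallest change called in DKO against WT was 1.1 on the log2 scale, so a change of the size fitted for Padi1 was below what was called at this depth.

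Counting every member whose libraries did not overlap gives 3 of 5 in DKO against WT (Padi3 and Padi4 lower, Padi1 higher), where 43.2% of all tested genes did not overlap. It gives 2 of 5 in P2KO against WT, where 37.5% did not, and 2 of 5 in DKO against P2KO (Padi1 higher, Padi4 lower), where 42.8% did not. For the 4 libraries with the Padi2 allele against WT it gives 2 of 5, Padi3 and Padi4, where 16.9% of tested genes did not overlap.

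**Figure D3:**
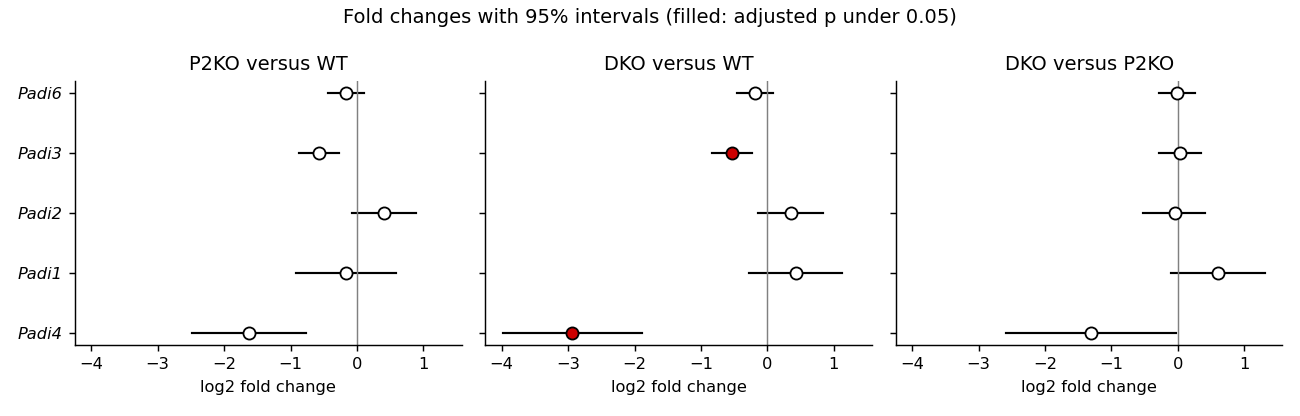
Log2 fold change of each Padi gene in the 3 comparisons of genotypes, with 95% intervals from edgeR's quasi-likelihood fit and filled points for an adjusted p under 0.05. The intervals of Padi4 and Padi3 against WT lie below 0, and those of Padi1, Padi2 and Padi6 hold 0 in every comparison.

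**Figure D4:**
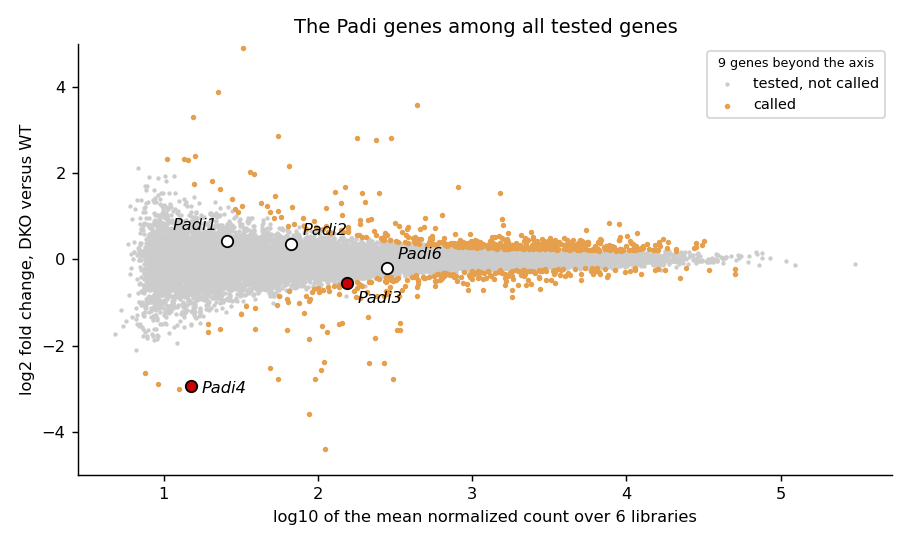
Log2 fold change in DKO against WT by the log10 of the mean normalized count for the tested genes, with called genes in orange and the Padi genes as large points, filled red where called. The axis leaves out 9 genes. Padi4 lies at -2.94 and Padi3 at -0.54, while the other members lie between -0.19 and 0.43.

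Padi3 and Padi4 lie side by side on the minus strand and were both lower in the P2KO and DKO libraries, so the stretch from 250 bases before to 50 bases after their start sites is shown, from RefSeq on GRCm38.p6. The capitals mark TATAAA and GGGCGG (or its complement CCGCCC).
Padi3 (chr4:140810599-140810898, minus strand): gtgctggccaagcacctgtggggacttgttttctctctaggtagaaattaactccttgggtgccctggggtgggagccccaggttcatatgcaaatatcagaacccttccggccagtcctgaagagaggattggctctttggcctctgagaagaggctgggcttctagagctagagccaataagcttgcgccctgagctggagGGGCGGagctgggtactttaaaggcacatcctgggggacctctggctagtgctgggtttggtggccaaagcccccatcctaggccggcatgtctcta
Padi4 (chr4:140774154-140774453, minus strand): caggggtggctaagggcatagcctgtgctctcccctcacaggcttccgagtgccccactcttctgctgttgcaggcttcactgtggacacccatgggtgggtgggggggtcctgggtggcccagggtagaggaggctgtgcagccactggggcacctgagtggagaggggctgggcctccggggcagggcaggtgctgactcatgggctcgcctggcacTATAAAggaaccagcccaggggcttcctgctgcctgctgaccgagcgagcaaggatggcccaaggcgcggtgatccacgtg
TATAAA was searched on both strands as the core of a TATA box and was found in Padi4 alone, at position -31 from its start site, and 13.6% of 32851 promoters held it. GGGCGG, the core of a GC box, was found 3 times in Padi2, once in Padi3 and Padi6 and not in Padi1 or Padi4, and 35.7% of promoters held it. ACAAT, a core of SOX factor sites, was found in none of the 5 windows, and 31.0% of promoters held it. GGTCA, a half-site of the estrogen receptor, was found once in Padi4 (40.5% of promoters). The palindromic estrogen response element, which contains it, was found in none, and 0.1% of promoters held it. The Padi2 window held 22 CpG dinucleotides, against 2 to 8 in the other members and a median of 7 over all promoters.

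Around the family, 13 other annotated genes lay in or overlapped the stretch out to 100 kb on either side, and 6 were tested. Only Arhgef10l, which codes for a guanine nucleotide exchange factor, passed. It had 494 and 620 counts in WT, 425 and 321 in P2KO, and 362 and 434 in DKO, and lay on the minus strand from 140514485 to 140666012. Every P2KO and DKO library was below both WT libraries. Arhgef10l fell in P2KO (log2 fold change -0.65, SE 0.11, edgeR quasi-likelihood adjusted p = 6.99e-04) and in DKO (-0.49, SE 0.11, adjusted p = 0.00529), the latter not without DKO replicate 1 (-0.30, adjusted p = 0.3). The other tested neighbours, Rcc2, Sdhb, Atp13a2, Mfap2 and Crocc, had log2 fold changes between -0.39 and 0.12 in DKO against WT, and Crocc, a component of the ciliary rootlet, had the lowest (-0.39, adjusted p = 0.0669). On all of chromosome 4, 10.9% of 1227 tested genes changed in DKO against WT and 4.97% fell, against 3.22% and 1.16% of all tested genes. In P2KO against WT, 3.02% of the tested genes of chromosome 4 changed. The part of this share in the lower counts of Padi3 and Padi4 was not tested.

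**Figure D5:**
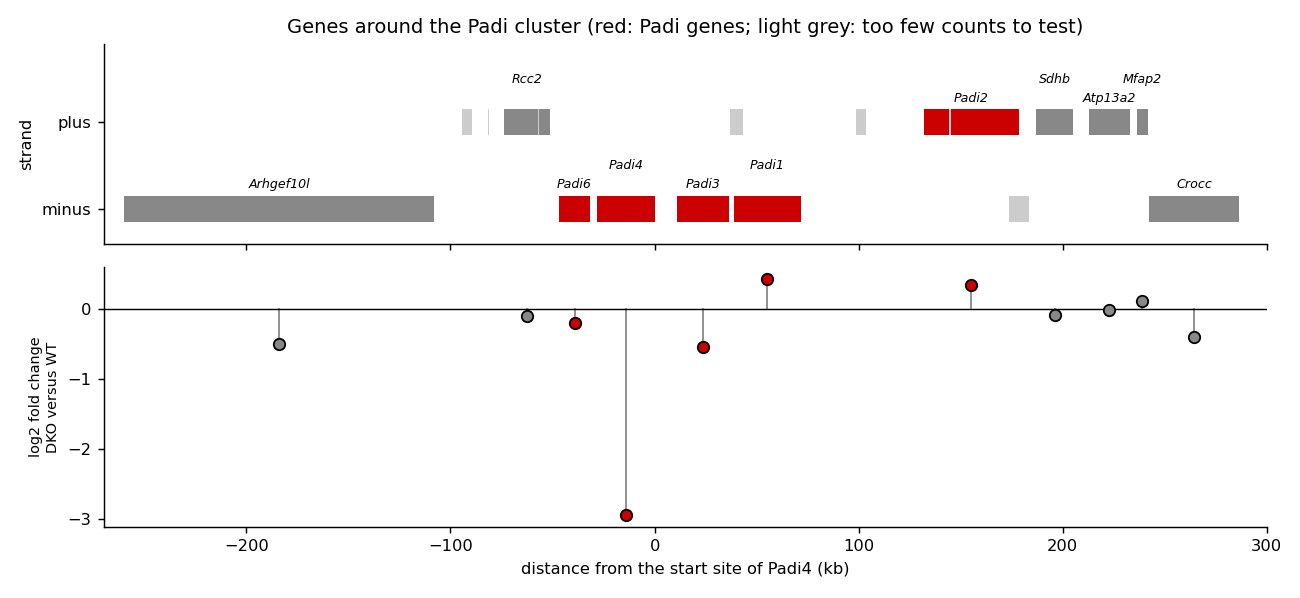
Upper panel, genes from 100 kb before to 100 kb after the Padi genes by strand, as distance in kb from the start site of Padi4 (red, Padi genes; dark grey, other tested genes; light grey, genes with too few counts to test); lower panel, the log2 fold change of DKO against WT at the middle of each tested gene. Padi4 stands at -2.94, while Padi6, 3.2 kb from it, is at -0.19.

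Genes of the family's biology were read from lists. Of 23 genes whose proteins are known to be citrullinated, 17 were tested. In DKO against WT 2 passed, where 3.22% of all tested genes changed. Ep300, a histone acetyltransferase, rose (log2 fold change 0.32, edgeR quasi-likelihood adjusted p = 0.0108), and Col2a1, the chain of type II collagen, fell (-0.46, adjusted p = 2.47e-04). Ep300 had 1324 and 1342 counts in WT against 1714 and 1675 in DKO, and Col2a1 1186 and 1312 against 905 and 936. The call of Ep300 was lost without WT replicate 2 (log2 fold change 0.19, edgeR quasi-likelihood adjusted p = 0.341) and without DKO replicate 2 (0.27, adjusted p = 0.274). Over the 17 genes, the median log2 fold change was 0.04, against 0.00 for all tested genes. The most highly counted members, the chaperone Hspa5 and pyruvate kinase Pkm, had log2 fold changes of 0.04 and 0.00 and did not pass. In P2KO against WT, 0 of the 17 passed by edgeR's quasi-likelihood test or DESeq2. There, 1 was at an unadjusted p under 0.05 by edgeR, as were 1777 of all 20744 tested genes. In DKO against P2KO Col2a1 alone passed (-0.54, edgeR quasi-likelihood adjusted p = 3.46e-05), where 1.21% of all tested genes did.

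Citrulline is also made and used as a free amino acid, and 14 of 15 genes of citrulline and arginine metabolism were tested. In DKO against WT, where 3.22% of all tested genes changed, 3 of the 14 rose by edgeR's quasi-likelihood test: the argininosuccinate synthase Ass1, which consumes citrulline (log2 fold change 0.34, adjusted p = 0.047), the arginase Arg2 (1.31, adjusted p = 0.00555) and the arginine transporter Slc7a1 (0.30, adjusted p = 0.0335). DESeq2 called 0 of the 14, and gave no adjusted p for Arg2. Arg2 had 24 and 21 counts in WT, 48 in each P2KO library, and 50 and 63 in DKO. Over the 14 genes, the median log2 fold change was 0.14, against 0.00 for all tested genes. Ass1 had a log2 fold change of 0.01 without DKO replicate 1, and passed in only 3 of 9 alternatives that left out no library. Arg2 did not pass without WT replicate 2 (edgeR quasi-likelihood adjusted p = 0.115) or DKO replicate 2 (adjusted p = 0.205). Slc7a1 did not pass in 3 of the 6 fits that left out a library, those without WT replicate 2, DKO replicate 1 and DKO replicate 2, and passed in 5 of 9 other alternatives. Odc1, the most highly counted of the list, had a log2 fold change of 0.07, and Otc was at 0 counts in all libraries. In P2KO against WT and in DKO against P2KO, 0 of the 14 passed by either tool. At an unadjusted p under 0.05 by edgeR were 2 and 1 of them, and 1777 and 2458 of all 20744 tested genes.

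Genes of the members' partners and usual tissues did not pass the test. Of 7 genes of the subcortical maternal complex, the oocyte complex that holds PAD6, 4 were tested (Zbed3, Tle6, Nlrp5 and Nlrp4f), and 0 passed in any comparison by edgeR's quasi-likelihood test or by DESeq2, with 0 at an unadjusted p under 0.05. Zbed3 had 588 to 769 counts, Tle6 86 to 142 and Nlrp5 71 to 97. Of 13 genes of the cornified epithelium, the tissue of PAD1 and PAD3, 4 were tested, and 0 passed in any comparison by either tool. In DKO against P2KO 1 was at an unadjusted p under 0.05 by edgeR, as were 2458 of all 20744 tested genes. Tchh, the hair follicle substrate of PAD3, had 43 to 76 counts, and Flg2 and Krt14 were at 0.

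For each member, the genes whose log2 CPM were most like its own over the 6 libraries were found by Pearson's r, as a description. Among them were Gm35189, Esrra and Trp53i13 for Padi3 (r of 0.994, 0.987 and 0.986), Ldb1 and Iqcf4 for Padi4 (0.997 and 0.993) and Gm45477, Gm45110 and Tmem247 for Padi6 (0.998, 0.991 and 0.99). For Padi2 they were 1700025K04Rik, Gm37494 and Wdsub1 (0.986, 0.984 and 0.984), and for Padi1 4930412B13Rik, Gm8493 and Gif (0.996, 0.988 and 0.988). With 6 libraries, between 95 and 289 genes had an r over 0.9 with a given member. Among the members themselves, r was highest for Padi3 and Padi4, at 0.79. Both were highest in the 2 WT libraries, so this r restates that difference and is no separate result.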

How the data were processed

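Whole-testis RNA of 6 mice was sequenced, 2 per genotype. The authors ran Trim Galore (cutadapt) and STAR (GRCm38, Ensembl genes) and deposited counts per gene, as whole numbers without normalization. Versions and the strand counted are not given in the sources used here. Every column was mapped to its label and 0 columns were left unused.

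The tools were R 4.3.3, edgeR 4.0.16 (glmQLFit and glmQLFTest), limma 3.58.1 and DESeq2 1.42.0. Genes were tested after filterByExpr (minimum count 10) and TMM scaling (factors 0.984 to 1.02) in 1 fit of 6 libraries with genotype as a term and 3 residual degrees of freedom. The prior count was 0.125, Benjamini-Hochberg adjustment was used, and the SE is the absolute log2 fold change over the square root of F. The fit was tested on simulated data. Groups of 2 libraries cannot pass 0.05 in an exact permutation test (smallest p 0.333). Libraries were separate mice and differed by more than sampling noise. Group names come from the labels, and ages and allele designs from the study's methods.

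Genes, lengths and exon sequences came from GENCODE mouse release 21 (Ensembl 96, GRCm38), with all 55536 identifiers matched. Promoter windows came from RefSeq (GRCm38.p6), and mafft 7.526 aligned coding sequences. Named genes were the 5 members, all genes within 100 kb, the 3 most alike tested genes by log2 CPM (prior count 2), and from each list the called genes and the 2 with the highest counts; not every one is printed, and some results are not reported here. Members, lists and tests were chosen with earlier results of these data known. Alternatives were RLE or upper-quartile scaling, a prior count of 2, no filter and a filter on means of 50 counts. Others were the replicate number as a block, DESeq2, edgeR on the compared genotypes, and genes off chromosome 4 plus the Padi genes. The rest were other lengths and each library left out.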

Additional observations from a re-analysis of the deposited data

How the results depend on the processing

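Of the 282 log2 fold changes of the Padi genes under an alternative, 257 stayed on the same side of 0 and of the threshold, 11 lost the call, 2 gained it and 12 reversed, all 12 with a library left out. In every alternative that could be fitted, Padi4 kept its call in DKO against WT, where DESeq2 gave no adjusted p, as for Padi1 in DKO against WT and Padi1 and Padi4 in DKO against P2KO. The filter on a mean of 50 counts leaves out Padi1 and Padi4. The call of Padi3 was lost by DESeq2 in DKO against WT (log2 fold change -0.53) and for the mean of P2KO and DKO (-0.55), and Padi4 gained one in P2KO against WT without a filter (-1.63). The causes were not tested.

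Replicate numbers did not pair the mice, since the deviations of same-numbered libraries had correlations of -0.0572, 0.0574 and -0.0502. With the replicate block, Padi3 in DKO against WT was at -0.54 with an edgeR quasi-likelihood adjusted p of 0.0588, and calls over all genes were 45 in P2KO against WT, in place of 70, and 227 for the mean against WT, in place of 366. No other call of a Padi gene changed with the block.

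With each library left out in turn, log2 fold changes in P2KO against WT ran from -0.49 to 0.17 for Padi1, from 0.06 to 0.65 for Padi2, from -1.96 to -1.14 for Padi4 and from -0.37 to 0.02 for Padi6. Padi1 reversed without WT replicate 1 (0.17) and P2KO replicate 1 (0.06), and Padi6 without WT replicate 2 (0.02). In DKO against WT they ran from 0.11 to 0.77 for Padi1, from 0.00 to 0.64 for Padi2, from -0.62 to -0.46 for Padi3 and from -0.35 to 0.01 for Padi6, which reversed without WT replicate 2. In DKO against P2KO they ran from -0.40 to 0.29 for Padi2, from -0.04 to 0.10 for Padi3 and from -0.17 to 0.18 for Padi6. Reversals there were Padi2 without P2KO replicate 1 (0.29) or DKO replicate 1 (0.24), Padi3 without P2KO replicate 2 (-0.02) or DKO replicate 2 (-0.04) and Padi6 without P2KO replicate 1 (0.18) or DKO replicate 1 (0.08). For the mean against WT they ran from -0.19 to 0.47 for Padi1, from -0.63 to -0.48 for Padi3, from -2.62 to -1.79 for Padi4, whose call was lost without WT replicate 2 (edgeR quasi-likelihood adjusted p 0.158), and from -0.34 to 0.02 for Padi6. Padi1 and Padi6 reversed without WT replicate 2.

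Calls over all genes in P2KO against WT were 140 without a filter, 41 by DESeq2 and 24 with genes off chromosome 4 plus the Padi genes. DESeq2 called 403 in DKO against WT, 162 in DKO against P2KO and 171 for the mean, in place of 668, 250 and 366. edgeR on the compared genotypes gave 579 in DKO against P2KO, and genes off chromosome 4 plus the Padi genes gave 241 for the mean. Leaving out a library gave 53 to 311 calls in P2KO against WT, 250 to 1065 in DKO against WT, 108 to 622 in DKO against P2KO and 182 to 750 for the mean. Upper-quartile scaling split DKO against WT into 367 higher and 322 lower, in place of 428 and 240, and the mean into 203 and 184, in place of 236 and 130.

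Alternatives for genes outside the family were added after seeing the data. Calls in DKO against WT were lost without WT replicate 2 or DKO replicate 2 for Ep300, Arg2 and Slc7a1, and without DKO replicate 1 for Arhgef10l, Ass1 and Slc7a1. Ass1 passed in 3 of 9 and Slc7a1 in 5 of 9 of the other alternatives. With 4 to 43 counts per library for Padi4 and 20 to 32 for Padi1, depth limits these members most.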
